A study of Mus musculus with 474 samples.

Results

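The 8 genes described here encode the high mobility group (HMG) chromatin proteins of mouse: Hmgb1, Hmgb2 and Hmgb3 of the HMG-box family, Hmga1 and Hmga2 of the AT-hook family, and Hmgn1, Hmgn2 and Hmgn3 of the nucleosome-binding family. They were taken by symbol from the 55450 genes of the count tables, and all 8 were found. They were examined in libraries each made from 1 daughter cell of a haematopoietic stem cell (HSC), the cell from which all blood lineages arise. Bone marrow of wild type male C57BL/6JRj mice aged 12 to 19 weeks was the source, and the labels name no treatment. Time-lapse imaging caught the first division in culture, after which the daughters were picked by micromanipulator and read by Smart-seq2, a plate method that covers transcripts along their length in a single cell. The deposited metadata name the sisters of each division and mark one as having received more lysosomes ("high") and the other fewer ("low"). The cells came from 9 culture experiments, which were used as the replicates. Experiments 69, 74, 75, 76 and 77, sequenced in run 4, held 32, 61, 72, 77 and 55 cells, and experiments 60, 68, 72 and 73 of run 5 held 48, 49, 28 and 52. Divisions with 1 high and 1 low daughter numbered 12, 27, 33, 38 and 26 in the experiments of run 4 and 20, 17, 11 and 19 in those of run 5, in the same order, and hold 85.7% of the cells. The other 68 cells had no such sister. The labels do not tie experiments to separate animals, so p-values measure the spread between cultures or divisions.

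HMG proteins are abundant non-histone proteins that bind DNA or nucleosomes with little sequence preference. HMGB proteins bend DNA through paired HMG boxes, and HMGB1 also acts as an alarm signal when it leaves the cell. HMGA proteins hold the minor groove of AT-rich DNA through AT hooks, and HMGA2 is best known from fetal HSCs, where the RNA-binding protein LIN28B keeps its messenger free of let-7 microRNAs. HMGN proteins bind the nucleosome core and compete with linker histone H1. HMGB2 is a common marker of cycling cells.

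The cells held between 76735 and 2444858 counts on genes (median 846198) and a median of 9867.5 detected genes. HSC markers were present: the median of 8 markers was found in 92.3% of cells and Mecom in all of them, while Hoxb5 was at 0. Of the markers of other blood cells, Mpo and Ctsg (myeloid), Cd3e and Rag1 (lymphoid) and C1qa (macrophage) were at 0. The runs differed in the share of ERCC spike-in reads, whose median was 0.0259% in run 4 and 0.604% in run 5. No pair of count columns was identical.

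The 8 genes lie on 8 chromosomes. In GRCm38 coordinates from GENCODE release M21, whose identifiers equal those of the tables, the HMGB genes are Hmgb1 (ENSMUSG00000066551.12) at chr5:149046702-149184489 on the minus strand, Hmgb2 (ENSMUSG00000054717.7) at chr8:57511907-57515999 on the plus strand and Hmgb3 (ENSMUSG00000015217.11) at chrX:71555918-71560676 on the plus strand. The HMGA genes are Hmga1 (ENSMUSG00000046711.16) at chr17:27556497-27563674 on the plus strand and Hmga2 (ENSMUSG00000056758.14) at chr10:120361275-120476469 on the minus strand. The HMGN genes are all on the minus strand: Hmgn1 (ENSMUSG00000040681.16) at chr16:96120618-96127729, Hmgn2 (ENSMUSG00000003038.15) at chr4:133964738-133968650 and Hmgn3 (ENSMUSG00000066456.14) at chr9:83109948-83146685.

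HMG genes have many processed copies in the mouse genome, so reads can be split between a gene and a copy. Annotated genes with a transcript at least 90% identical over 50% of its length were most numerous for Hmgb1, where 78 of them had a count, and numbered 24 for Hmgn2, 15 for Hmgb3, 11 for Hmgb2, 8 for Hmgn1, 1 each for Hmga1 and Hmga2, and 0 for Hmgn3. Their counts came to 2.77% of the gene's own for Hmgb1, 1.71% for Hmgb2 and 1.53% for Hmga1, whose copy is Hmga1b, and to less than that for the other members. How the counting split such reads is not given in the sources used here, so these values are uncertain to an extent not measured. Exons of other genes covered 15.25% of the exon length of Hmgn3 and 5.83% of that of Hmga1. The strand setting of the counting is not given in the sources used here.

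The promoters of the 4 members with the highest correlation with a G2/M score (below, Hmgb2, Hmgb1, Hmgn2 and Hmgb3) and of the member with the lowest (Hmga1) are printed here because CCAAT boxes and the CHR element, bound by NF-Y and the DREAM complex, are known from promoters of late cell cycle genes. Each runs 5′ to 3′ on the gene's strand from 250 bases before to 50 after a RefSeq start on GRCm38.p6; for Hmgb1 and Hmga1, which have another start in the table, the first is shown. Capitals mark CCAAT and CHR (TTTGAA or TTCGAA), searched on both strands, so that TTCAAA is a CHR on the opposite strand. The windows are chr5:149053008-149053307 (minus), chr8:57511593-57511892 (plus), chrX:71555667-71555966 (plus), chr4:133967942-133968241 (minus) and chr17:27556324-27556623 (plus), in the order of the lines.
Hmgb1: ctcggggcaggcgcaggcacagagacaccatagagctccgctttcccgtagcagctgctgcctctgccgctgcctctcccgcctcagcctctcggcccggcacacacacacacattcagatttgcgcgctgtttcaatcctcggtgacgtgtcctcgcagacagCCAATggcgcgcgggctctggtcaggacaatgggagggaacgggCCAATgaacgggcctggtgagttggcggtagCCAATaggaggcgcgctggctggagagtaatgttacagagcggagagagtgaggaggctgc
Hmgb2: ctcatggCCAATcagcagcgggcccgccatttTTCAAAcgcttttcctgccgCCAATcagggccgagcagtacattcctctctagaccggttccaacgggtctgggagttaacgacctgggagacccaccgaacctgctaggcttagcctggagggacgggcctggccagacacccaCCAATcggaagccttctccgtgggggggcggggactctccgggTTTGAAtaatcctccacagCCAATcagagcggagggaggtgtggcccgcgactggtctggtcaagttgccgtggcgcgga
Hmgb3: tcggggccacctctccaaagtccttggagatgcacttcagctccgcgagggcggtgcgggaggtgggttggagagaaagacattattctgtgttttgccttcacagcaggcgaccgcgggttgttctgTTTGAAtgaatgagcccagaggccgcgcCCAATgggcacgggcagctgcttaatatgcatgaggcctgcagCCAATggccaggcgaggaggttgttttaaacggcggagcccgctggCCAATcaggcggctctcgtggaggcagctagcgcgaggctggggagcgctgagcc
Hmgn2: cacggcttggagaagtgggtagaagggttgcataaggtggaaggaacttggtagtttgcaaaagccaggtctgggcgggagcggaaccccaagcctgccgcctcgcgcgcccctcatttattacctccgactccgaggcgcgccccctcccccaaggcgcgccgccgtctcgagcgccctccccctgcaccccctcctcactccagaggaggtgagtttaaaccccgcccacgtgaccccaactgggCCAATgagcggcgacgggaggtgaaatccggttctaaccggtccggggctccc
Hmga1: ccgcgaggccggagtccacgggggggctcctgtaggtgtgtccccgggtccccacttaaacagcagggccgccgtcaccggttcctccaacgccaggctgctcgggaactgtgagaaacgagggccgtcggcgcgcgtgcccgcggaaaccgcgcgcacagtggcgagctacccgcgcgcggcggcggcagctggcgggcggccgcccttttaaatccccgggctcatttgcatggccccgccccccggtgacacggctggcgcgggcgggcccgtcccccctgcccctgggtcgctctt
The Hmgb2 window held 4 CCAAT and 2 CHR motifs. The nearer CHR began 30 bases before the RefSeq start and the nearest CCAAT 11 bases before it. This window ends at 57511892, before the GENCODE start of Hmgb2 at 57511907, so these distances hold for the RefSeq start only. The printed Hmgb1 and Hmgn2 windows lie inside their GENCODE genes, whose 5′ ends are at 149184489 and 133968650. The Hmgb3 window held 3 CCAAT and 1 CHR. Hmgb1 had 3 CCAAT in its first window and 0 in its second, Hmgn1 had 2 and Hmgn2 had 1, all 3 without CHR. Neither motif was found in either Hmga1 window or in the Hmga2 window. Of 32851 promoter windows of this length, 37.4% held CCAAT and 19.2% CHR. The E2F letters TTTCCCGC, TTTGGCGC, TTTCGCGC and TTTGCCGC (2.26% of windows) and TATAAA (13.6%) were found in none of the windows of these 7 genes. Hmgn3 had no promoter window in the sources used here, so its motifs were not searched.

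All 8 genes were read in most cells, from 92.6% for Hmga2 to 100% for Hmgb1 and Hmgb2. Levels between genes are compared in RPKM, reads per kilobase of exon scaled to the cell's total on genes, as mean ± SD over the 9 experiments. Hmgn2 was highest at 106.7 ± 23.4 RPKM, with a lowest, median and highest experiment of 73.9, 104.2 and 141.96. Hmgb2 followed at 78.01 ± 19.9 (55.6, 74.2 and 112.3), then Hmgb1 at 61.96 ± 10.1 (52.1, 59.8 and 85.3) and Hmga1 at 54.1 ± 12.6 (36.9, 51.03 and 73.9). Each of these 4 stood above more than 93.5% of the 11745 genes ranked per length.

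The lower 4 members were Hmgn1 at 36.9 ± 6.82 RPKM, Hmgn3 at 30.8 ± 4.81, Hmgb3 at 22.8 ± 6.46 and Hmga2 at 16.7 ± 14.6. Hmgn1 ran from 29.1 to 50.3 over the experiments, Hmgn3 from 21.4 to 36.9 and Hmgb3 from 15.1 to 32.96, so these 3 overlapped. Hmgn2 was above Hmgb2, and Hmga1 above Hmgn1, in 9 of 9 experiments, and Hmgb2 was above Hmgb1, and Hmgn3 above Hmgb3, in 8 of 9. For Hmgb1 over Hmga1 the mean difference was 7.84 RPKM, less than its SD over experiments of 15.7, and Hmgb1 was higher in 6 of 9. The mean difference was also below its SD for Hmgn1 over Hmgn3 (6.07 with an SD of 7.67, 7 of 9). Hmgb3 was above Hmga2 in 8 of 9, by a mean of 6.12 with an SD of 18.8. The exception was experiment 60, where Hmgb3 was at 15.1 and Hmga2 at 55.3 RPKM. These orders were not tested. By sequencing run, Hmgb2 was at 196.6 ± 39.5 CPM (counts scaled to the library total, not to length) in the 4 experiments of run 5 and 264.4 ± 58.5 in the 5 of run 4, with overlapping ranges.

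**Figure D1:**
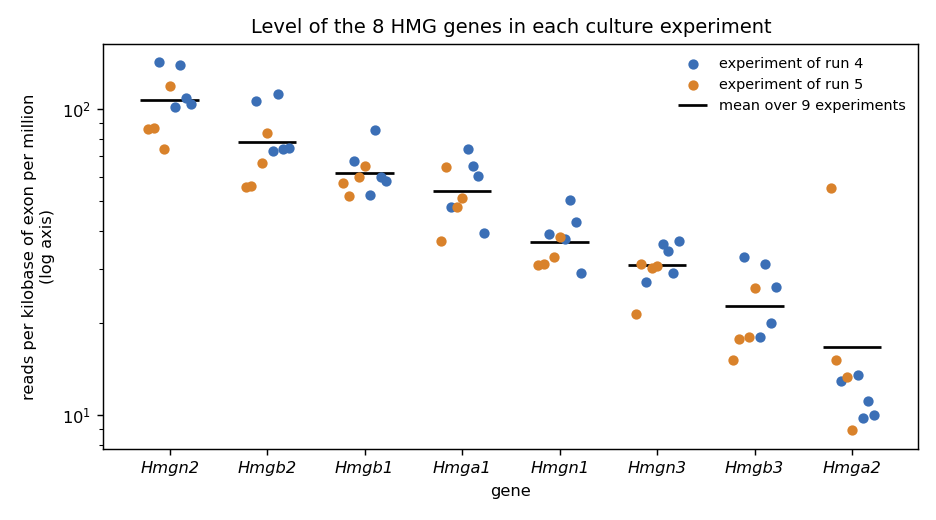
Mean level of each HMG gene per culture experiment, in RPKM on a log axis; points are the 9 experiments coloured by sequencing run and bars are their means. Hmgn2 is highest at a mean of 106.7 and Hmga2 lowest at 16.7, with 1 experiment of Hmga2 at 55.3.

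Most of the spread of Hmga2 between the means of the experiments came from experiment 60. Its mean was 374.4 CPM in experiment 60 and between 60.3 and 102.2 in the other 8; without experiment 60 the mean over experiments fell from 112.9 ± 99.1 to 80.2 ± 14.8 CPM. In experiment 60, 11 of 48 cells exceeded 500 CPM (22.9%), against 4 cells (0.939%) elsewhere. The level varied widely within that culture, whose cells ran from 0 to 2119 CPM. Its median was 148.05 CPM, against medians of 26.5 to 79.9 in the other 8 experiments. Its highest division had sisters at 2053 and 2119 CPM, the next 1191 and 875, and the third 341.7 and 974. In 6 of its 20 divisions at least 1 sister exceeded 500 CPM, and in 2 both did.

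Genes of a list around LIN28, let-7 and HMGA2 were compared in the same culture. Lin28b was at 20.3 CPM in experiment 60 and at 1.49 to 11.9 in the others. Igf2bp2, an RNA-binding protein known as an HMGA2 target, was at 35.3 and at 8.68 to 33.1. Of the 9 tested genes of the LIN28, let-7 and HMGA2 list, 6 were highest in experiment 60: these 2, Dis3l2 (105.5 CPM, against at most 72.6 elsewhere), Drosha (97.03, at most 91.1), Tut4 and Tut7. Igf2bp3, Arid3a and Dicer1 were not. Igf2bp2 and Drosha exceeded the next experiment by little, Lin28b and Dis3l2 by more. The share of all genes that were highest in experiment 60 was not measured, so whether 6 of 9 is unusual was not tested. Hmga1 was lower there than in any other experiment, at 78.4 CPM against 83.5 to 156.9. The summed HSC markers of experiment 60 (3455 CPM) lay within the range of the others (2800 to 4096), and its erythroid and macrophage markers (10.02 and 7.51 CPM) were the lowest of the 9 experiments. Its median total count, 580670, was the second lowest of the 9, and the part of depth or culture in the Hmga2 level was not tested.

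Cell cycle position was described by the mean log2(CPM + 1) of 42 G1/S genes, read mostly during replication, and of 53 G2/M genes, read late in the cycle; Hmgb2, usual in such a list, was left out. Pearson r was taken over the cells of all paired divisions after centring on experiment and plate. Cells share libraries, depth and culture, so r is a description and has no p.

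Hmgb2 followed the G2/M score as closely as Top2a and Mki67, which are in the score, did. Its r was 0.910 over all cells and between 0.873 and 0.936 in the 9 experiments, beside 0.889 for Top2a and 0.848 for Mki67. The 10th and 90th percentiles of its level were 35.7 and 524 CPM. The division with the lowest mean had sisters at 14.7 and 19.4 CPM with G2/M scores of 2.35 and 2.14, and that with the highest had 871 and 928 CPM with scores of 8.07 and 8.23. Its r with the G1/S score was 0.536; with the other score held constant, r was 0.871 for G2/M and 0.060 for G1/S.

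Hmgb1, Hmgn2 and Hmgb3 also rose with the G2/M score, less closely. Their r values were 0.631, 0.586 and 0.518, with ranges over experiments of 0.381 to 0.733, 0.290 to 0.691 and 0.206 to 0.765. Together with Hmgb2, 4 of 8 members had a positive r in all 9 experiments, and 15.1% of the 11699 genes tested did. The median r over the members was 0.41 and over all genes 0.05. The lowest r of these 3 genes came from experiment 75, where the G2/M score varied least (SD over cells 1.96, against 2.04 to 2.51 elsewhere); the part of that spread in r was not tested.

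Hmgn1 followed the G1/S score more closely than the G2/M score. Its r was 0.413 with G1/S, positive in 9 of 9 experiments, and 0.309 with G2/M, positive in 8. With the other score held constant these were 0.30 and 0.10. Only Hmgb2 and Hmgn1, 2 of 8 members, had a positive r with the G1/S score in every experiment, beside 14.8% of all genes, and 0 of 8 had a negative one throughout, beside 2.23%.

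Hmga1, Hmga2 and Hmgn3 leaned the other way. Their r with the G2/M score was -0.214, -0.192 and -0.144. Only Hmgn3 was negative in all 9 experiments, between -0.269 and -0.006, and 3.28% of all genes were; Hmga1 and Hmga2 were negative in 8. Hmga1 had r of 0.008 with the G1/S score. The division lowest in Hmga1 had sisters at 8.39 and 7.36 CPM and G2/M scores of 8.14 and 8.19, while the highest had 449.3 and 266.7 CPM and scores of 3.33 and 2.93.

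The 2 scores and their squares accounted for 87.8% of the variance of division means for Hmgb2, 51.5% for Hmgb1, 42.8% for Hmgn2, 40.9% for Hmgb3 and 28.04% for Hmgn1. For Hmga1, Hmga2 and Hmgn3 the shares were 9.32%, 8.23% and 4.56%, near the median of 5.61% over all genes. Divisions with a Plk1 count in at least 1 sister, 65.02% of all, had 327.5 ± 65.7 CPM of Hmgb2 over experiments and those without had 75.4 ± 24.3. The corresponding Hmga1 values were 105.999 ± 34.9 and 124.6 ± 32.5, and for Hmgn2 377.2 ± 71.01 and 236.4 ± 94.6.

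**Figure D2:**
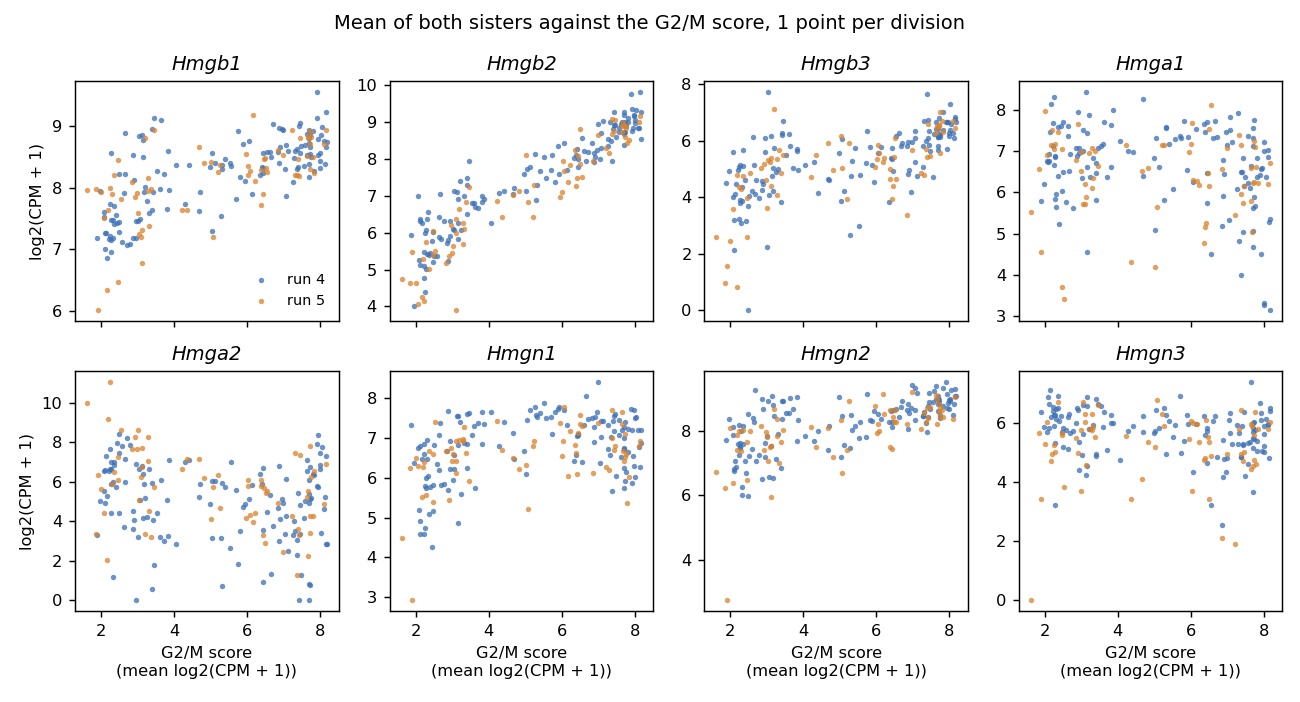
Mean log2(CPM + 1) of both sisters against their mean G2/M score (mean log2(CPM + 1) of 53 genes), 1 point per division, coloured by sequencing run. Hmgb2 rises along the whole score (r 0.910 over cells), while Hmga1 falls slightly (r -0.214).

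The level in 1 sister also followed the G2/M score of the other. For Hmgb2 this r was 0.793, against 0.910 with the cell's own score, for Hmgb1 0.502, for Hmgn2 0.477 and for Hmgb3 0.431. The scores of sisters were themselves correlated, with r of 0.877 for G2/M and 0.773 for G1/S.

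Sisters were alike in all 8 HMG genes, though only weakly in Hmgn1 and Hmgn3. Sharing was measured by the intraclass correlation, the share of the variance of log2(CPM + 1) that lies between divisions, after centring on experiment and plate, with an F test over divisions and Benjamini-Hochberg adjustment over 11699 genes. All 8 members passed an adjusted p of 0.05, and 26.4% of all genes did. The median intraclass correlation was 0.44 for the members and 0.09 for all genes. The members were not matched with genes of like level, here or for the cycle measures. Their SD within pairs had a median of 0.79, against 1.54 for all genes. These p-values rest on divisions, which are cells of 9 cultures.

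Hmgb2 was the most alike, with an intraclass correlation of 0.781 (95% interval 0.721 to 0.830, adjusted p 3.0e-40), and its interval did not overlap those of the other 7. The median fold between sisters was 1.38, and between unrelated cells from 1 experiment and plate 2.59. In the division with the median level, sisters nevertheless differed, at 286.97 and 94.9 CPM. Hmgn2 came next at 0.561 (0.457 to 0.649, adjusted p 1.3e-16), with a median fold of 1.29 in sisters and 1.64 in unrelated cells. Its highest division had 725 and 750 CPM.

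Hmga1 (0.532, interval 0.425 to 0.625, adjusted p 1.0e-14) and Hmgb1 (0.490, 0.377 to 0.589, adjusted p 3.2e-12) were next. The Hmgb1 pair highest in level had 760 and 745 CPM and the lowest 78.6 and 97.6. Intraclass correlations of Hmgb3 and Hmga2 were 0.385 (adjusted p 2.0e-07) and 0.359 (adjusted p 1.7e-06). Hmga2 varied most within pairs, with a median fold of 2.78 between sisters and 4.07 between unrelated cells, and 27 divisions had counts in 1 sister and none in the other.

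Hmgn3 and Hmgn1 were least alike, at 0.244 (adjusted p 0.0020) and 0.238 (adjusted p 0.0027). Their median folds were 1.76 and 1.57 between sisters, and 1.85 and 1.71 between unrelated cells. For each gene, sisters were closer than unrelated cells in 7 of 9 experiments. The Hmgn3 intraclass correlation fell to 0.147 without experiment 60, where the adjusted p was 0.0854 (range over 19 alternatives, adjacent wells aside, 0.000164 to 0.0854). Values per experiment were positive in all 9 for Hmgb1 and Hmgb2, 2 of 8 members beside 7.66% of all genes, and in 7 or 8 of 9 for the others. In run 5 alone, with 67 divisions, 5 of 8 passed, and 10.3% of all genes did. The 3 that did not pass there were Hmgn3, at 0.287 (adjusted p 0.0733) against 0.244 over all experiments, Hmga2, at 0.283 (adjusted p 0.0776) against 0.359, and Hmgn1, at 0.114 (adjusted p 0.413) against 0.238.

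**Figure D3:**
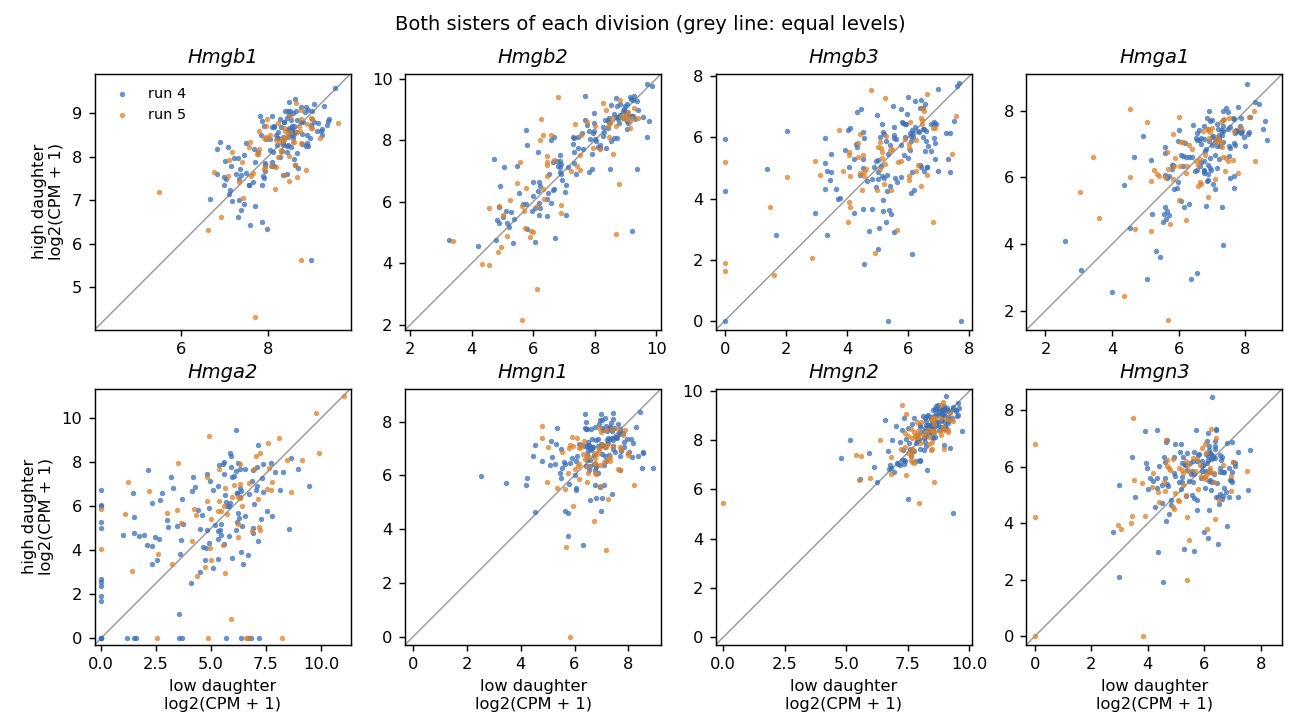
log2(CPM + 1) of the daughter with more lysosomes against that of its sister, 1 point per division, with the line of equal levels in grey. Hmgb2 pairs lie along the line (intraclass correlation 0.781) and Hmga2 pairs spread widely around it (0.359), with points on the axes where 1 sister had no count.

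With the cell cycle scores and their squares regressed out of each gene, 7 of 8 members still passed, beside 13.9% of all genes. Hmga1 hardly moved, from 0.532 to 0.528 (adjusted p 1.7e-13). Hmga2 went from 0.359 to 0.332 and Hmgn3 from 0.244 to 0.234. Hmgb2 moved most, from 0.781 to 0.317 (adjusted p 9.9e-05), and Hmgb1 went from 0.490 to 0.291, Hmgb3 from 0.385 to 0.196 and Hmgn2 from 0.561 to 0.424. Hmgn1 was at 0.159 and did not pass (adjusted p 0.0751, range over 19 alternatives 0.000267 to 0.413). Top2a, a score gene, went from 0.757 to 0.008. After this step Hmga1 had the highest value of the 8.

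Sisters were placed in adjacent wells in all but 2 divisions, so wells and kinship cannot be told apart within pairs. In unrelated cells in adjacent wells, whose pairs numbered 74.4% of the divisions, the intraclass correlation of the 8 members lay between -0.0637 and 0.0589, and 0 of 8 passed. That test called 20 of the 11699 genes.

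**Figure D4:**
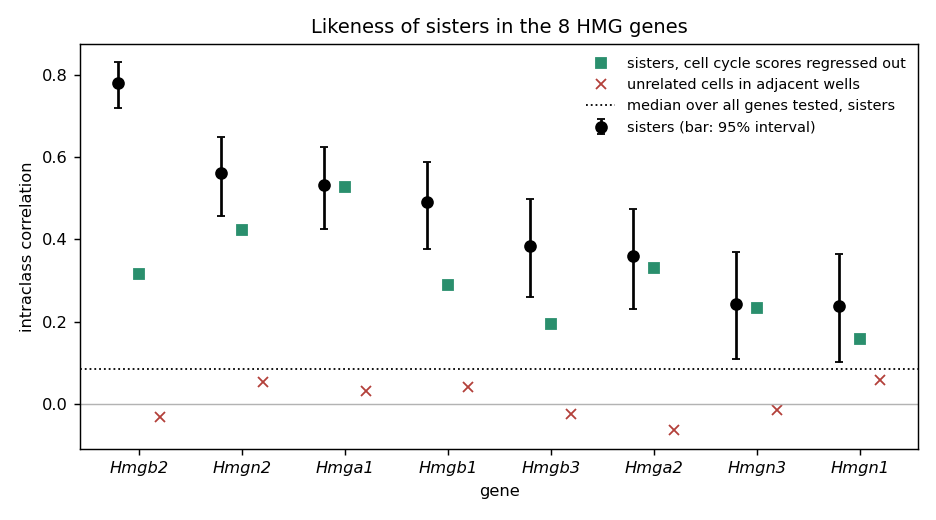
Intraclass correlation of sisters for each HMG gene (black, with 95% interval), with the cell cycle scores regressed out (green) and for unrelated cells in adjacent wells (red). Hmgb2 drops from 0.781 to 0.317 with the cycle removed, Hmga1 moves from 0.532 to 0.528, and the values of unrelated cells lie at or below 0.0589.

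Some members of different families moved together across divisions. Over division means, 17 of 28 pairs of members were positively correlated, and 23 were with the cycle removed. The share over all pairs of genes was not measured. The highest was Hmgb1 with Hmgn2 (r 0.797, positive in 9 of 9 experiments), which was 0.651 with the cycle removed. With Hmgb1 taken in 1 sister and Hmgn2 in the other, r was 0.534. Hmgb1 with Hmgb2 went from 0.680 to 0.141 with the cycle removed. Hmgb2 with Hmgn2 went from 0.615 to 0.064. Hmga1 and Hmga2 had r of 0.091. With the cycle removed, Hmga1 had r of 0.320 with Hmgn2 and 0.279 with Hmgb1, from 0.086 and 0.024.

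The genes whose division means were most like each member were found among all genes tested, over all paired divisions. For Hmgb2 they were Cdca8 (r 0.918), a subunit of the chromosomal passenger complex, Ckap2l (0.908), a spindle protein, and Ccna2 (0.900), cyclin A2. For Hmgb1 they were H2afz (0.777), the histone variant H2A.Z, Ccnb2 (0.719) and Birc5 (0.704), and for Hmgb3 Rangap1 (0.667), Stmn1 (0.651) and H2afz (0.647). Cdca8, Ckap2l, Ccnb2, Birc5 and Rangap1 belong to the G2/M score. H2afz also led for Hmgn2 (0.782), before the prolyl isomerase Ppia (0.733) and prothymosin gene Ptma (0.715), and r with H2afz was 0.596 when the cycle was removed.

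The other members had different neighbours. For Hmga1 they were Socs2 (0.559), a feedback inhibitor of cytokine signalling, Pik3cd (0.556), the delta catalytic subunit of PI3-kinase, and its near-identical copy Hmga1b (0.546); whether reads were split between them was not tested. These were 0.578, 0.551 and 0.523 with the cycle removed. For Hmgn1 they were Sdhd (0.607), Ptma (0.607) and Mif (0.599). Hmga2 and Hmgn3 had no close neighbour: the highest were Arrb1 (0.408), Stard9 (0.386) and Inpp5d (0.365) for Hmga2, and Rnh1 (0.362), Ctnnb1 (0.358) and Procr (0.356), the HSC surface marker EPCR, for Hmgn3.

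Lists of related genes were put through the same sister test, which 26.4% of all genes passed. Of linker histones, which HMGN and HMGA proteins compete with, 6 of 7 passed, led by Hist1h1b (0.577), Hist1h1a (0.516), Hist1h1e (0.504) and Hist1h1d (0.434), and 5 of 7 had a positive r with the G2/M score in all experiments, beside 15.1% of all genes. Of 23 histone variants, chaperones and other nucleosome partners, 19 passed, with Asf1b at 0.6996, H2afz at 0.627, H2afx at 0.620 and Ptma at 0.610. The medians were 0.43 for linker histones, 0.43 for nucleosome partners and 0.09 over all genes.

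Of 25 other tested HMG-box or HMG-related genes, 11 passed, a median of 0.12. Ssrp1, a subunit of the FACT histone chaperone, led at 0.402 and fell to 0.053 with the cycle removed, whereas Hmgn5 (0.370 to 0.272), Hbp1 (0.335 to 0.319) and Sox18 (0.331 to 0.317) moved less. Of 9 genes of the LIN28, let-7 and HMGA2 axis, 2 passed: Igf2bp2 (0.515, adjusted p 1.2e-13) and Lin28b (0.376, adjusted p 4.3e-07). That share of 22.2% was near the 26.4% of all genes. Tut7 (0.128) and Tut4 (0.114) did not. Over the 9 genes, r of division means with Hmga2 ran from -0.132 (Dicer1) to 0.245 (Igf2bp2), with Dis3l2 at 0.174, Lin28b at 0.171, Tut4 at 0.135 and Drosha at 0.132. Of 6 tested receptors and partners of extracellular HMGB1, 3 passed: Cd24a (0.338), Havcr2 (0.336) and Sdc1 (0.230); Cxcr4 (0.105) did not.

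The last comparison asked whether the sister with more lysosomes differed from the other in the HMG genes. Counts of the high and of the low daughters of each experiment were added up and tested by edgeR's quasi-likelihood F test with experiment as a block over 15854 genes. No member passed an adjusted p of 0.05 (0 of 8), and 0% of all genes did; 658 genes had an unadjusted p under 0.05, DESeq2 called 5 genes and none of the members, and limma on the differences within divisions called 0.

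Of the 8, Hmga2 had the largest difference. Its experiments ran from -0.40 to 0.81 with a median of 0.33 on the log2 scale for high minus low daughters, and high daughters were higher in 6 of 9 experiments. Means were 109.5 ± 74.02 CPM in high and 95.2 ± 77.4 in low daughters, and the log2 difference was 0.25 ± 0.11 (SE), with a 95% interval of 0.02 to 0.49, an unadjusted p of 0.0348 and an adjusted p of 0.999. In experiment 60 the labels were at 298.1 (high) and 298.4 CPM (low). Over 16 alternatives the difference lay between 0.185 and 0.336 with an unadjusted p of 0.0047 to 0.592 and an adjusted p of 0.666 or above.

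For the other 7 the difference lay between -0.06 (Hmgb3) and 0.09 (Hmgn3), with adjusted p of 0.999 for each. Hmgb1 had the narrowest interval, -0.12 to 0.10 on the log2 scale, around a difference of -0.01 (315.2 ± 46.5 CPM in high and 318.9 ± 62.4 in low daughters). Hmgb2 was at 236.7 ± 48.9 and 243.4 ± 70.9 CPM, an interval of -0.18 to 0.14, and its highest experiment, 77, had 240.7 and 176.5. Hmgn3 reached 0.87 in experiment 68 and -0.42 in experiment 69.

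**Figure D5:**
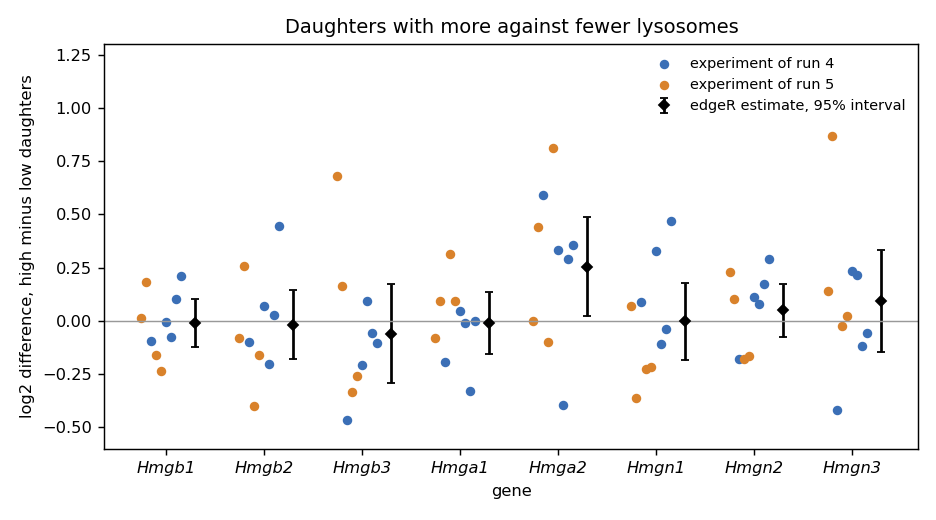
log2 difference between daughters with more and with fewer lysosomes for each HMG gene; points are the 9 experiments coloured by run, and diamonds the edgeR estimates with 95% intervals. The points of all 8 genes lie on both sides of 0, and only the interval of Hmga2 (0.02 to 0.49) leaves 0 out before adjustment.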

How the data were processed

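The authors deposited counts, raw reads per gene and cell with no normalization, and tables with labels of each cell. Per the submitters' processing notes, featureCounts of Subread 1.5.0 and SAMtools were used; aligner and build: not given in the sources used here. All 55450 gene identifiers equal GENCODE M21. A further 171 count columns of no listed sample were not used. The other values used are the labels the authors gave each cell in the metadata: experiment, colony and lysosome inheritance; how the lysosome label was set is not stated.

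Counts on genes were scaled to CPM and taken as log2(CPM + 1). Genes needed a count in at least 20% of paired cells for the sister and cycle measures. edgeR 4.0.16 (TMM, filterByExpr), DESeq2 1.42.0, limma 3.58.1, R 4.3.3, Python 3.11.15 and BLAST 2.17.0 were used. The F test and edgeR scripts were tested on simulated data. P-values rest on 9 experiments, or on divisions as stated. Genes named beyond the 8 members were 4 cycle genes, the 3 genes most like each member and up to 4 per list. The members and lists were chosen with earlier results of these data known. Alternatives were normalization, pseudocounts of 0.1 and 10, filters, depth, ranks, runs, experiments left out and copies added; leaving experiment 60 out of the levels and leaving experiments out of the cycle relation were added after seeing the data.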

Additional observations from a re-analysis of the deposited data

Results flagged for a closer look

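In 40 sets of 9 experiments (level, sister likeness, both cycle correlations and lysosome difference of each of the 8 members), 5 had an experiment far from the other 8 by the gap to its nearest neighbour over the whole range. Chance flags about 1 in 20 such sets. Hmga2 stood at 374.45 CPM in experiment 60, a gap of 0.867 of the range. Hmgb1 stood at 428.26 CPM in experiment 75, a gap of 0.533. Hmgb2 had an intraclass correlation of 0.51234 in experiment 72, the experiment with the fewest divisions (11). In experiment 75 Hmgb2 had r of 0.0042608 with the G1/S score and Hmgn2 had r of 0.28979 with the G2/M score. Experiment 75 also had the highest mean G1/S score of the 9 (6.29) and the smallest spread of G2/M scores; their part in these values was not tested.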

How the results depend on the processing

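The count of members positive with the G2/M score in every experiment (4 of 8) was 4 or 5 in the alternatives with that score. The G1/S score, a separate measure, gave a count of 2. With it Hmga1 had r of 0.00819, beside -0.214 with the G2/M score. The count alike between sisters (8) was 5 in run 5 alone and 0 in unrelated cells of adjacent wells, where Hmgb2 (-0.0309), Hmgb3 (-0.0238), Hmga2 (-0.0637) and Hmgn3 (-0.0134) turned below 0; it was 7 or 8 in every other alternative. Leaving out each experiment gave 4 to 5 members for the cycle count (5 without experiment 75), 7 to 8 for sisters (7 without experiment 60) and 0 to 0 for lysosomes.

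The lysosome count was 0 in all alternatives, but signs near 0 turned. In run 4 alone Hmgb1 was 0.0337, Hmgb2 0.0541, Hmgn1 0.151 and Hmgn3 -0.0184 (log2). In run 5 alone Hmgb3 was 0.0465, Hmga1 0.0960 and Hmgn2 -0.0132. Over divisions with limma Hmgb2 was 0.0476, Hmgb3 0.0179 and Hmgn1 0.0119. Leaving out 1 experiment, differences ran from -0.0368 to 0.0192 for Hmgb1, -0.0755 to 0.0309 for Hmgb2, -0.144 to -0.0101 for Hmgb3, -0.0481 to 0.0307 for Hmga1, 0.185 to 0.336 for Hmga2 and -0.0613 to 0.0445 for Hmgn1. The cause of these turns was not tested. Median counts per cell were lowest for Hmgb3 (30), Hmga2 (38) and Hmgn3 (40), which limits the precision of their values in single cells.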
